A study of Mus musculus with 16 samples.

Results

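The 9 genes described here, H2-Aa, H2-Ab1, H2-Eb1, Cd74, Ciita, H2-DMa, H2-DMb1, H2-Oa and H2-Ob, encode the mouse machinery for MHC class II antigen presentation. They were taken by gene symbol from a table of 30095 genes, and all 9 were present. The table holds RNA-seq values of whole lungs of C57BL/6 mice that carried tumours of HKP1, a mouse lung adenocarcinoma line, so tumour, lung and immune cells are mixed in every library. The 16 libraries formed 6 groups. Lungs given anti-PD-1, an antibody that blocks the checkpoint receptor PD-1 of T cells, had received a radiation dose of 0 Gy (2 libraries), 4 Gy (3) or 8 Gy (3). Lungs given the control antibody IgG had received 0 Gy (3), 4 Gy (2) or 8 Gy (3). The labels give a harvest time of 24 to 48 h after irradiation and 3 to 4 mice per pool. Nothing in them states that pools came from separate mice, and p-values cover only pool-to-pool spread, which may be technical. All groups, the unirradiated IgG lungs included, carried the tumour line, and no tumour-free lung was analysed here.

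MHC class II molecules are pairs of an alpha and a beta chain that show peptides from endosomes to CD4 T cells. The invariant chain, encoded by Cd74, escorts the new pairs to the endosome and leaves a fragment in the groove, which H2-DM exchanges for peptide and which H2-O, an inhibitor of H2-DM found mainly in B cells, helps to keep in place. Their transcription depends on the transactivator encoded by Ciita, which does not bind DNA itself but joins factors on the X and Y boxes of the promoters and is induced by interferon gamma. B cells, dendritic cells and macrophages are the classical class II cells, and in the lung alveolar type 2 cells carry class II as well. Mice of the b haplotype, to which C57BL/6 belongs, make I-A from H2-Aa and H2-Ab1 but lack the alpha chain of I-E, so the chain of H2-Eb1 has no partner there.

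Ciita acts through the X and Y boxes of class II promoters, and promoter windows are shown for that reason. RefSeq promoters of 300 bases on GRCm38.p6 (250 before and 50 after the start) were matched by symbol for 6 of the 9 genes. They were not matched for H2-Ab1, Cd74 and Ciita. The letters GATTGG, the core of the Y box, were searched on both strands and occurred in a promoter of each of these 6 genes (for H2-DMa in 1 of its 2 promoters), against 16.1% of all 32851 promoters of the same length. In 4 of them the letters TGANG, part of the X2 box, stood 15 to 25 bases before GATTGG on the same strand, against 0.846% of all promoters. TGANG alone was in 89.4%. The windows run from 110 to 21 bases before the start of transcription, on the gene's own strand from 5′ to 3′, and capitals mark GATTGG, its reverse complement, and TGANG where it belongs to such a pair. They lie at chr17:34287844-34287933 (minus strand) for H2-Aa, chr17:34305757-34305846 for H2-Eb1, chr17:34153081-34153170 for H2-DMb1, chr17:34238795-34238884 for H2-Ob and chr17:34092269-34092358 for H2-Oa (all plus strand).
H2-Aa: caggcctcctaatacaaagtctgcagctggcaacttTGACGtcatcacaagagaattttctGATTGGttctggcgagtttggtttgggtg
H2-Eb1: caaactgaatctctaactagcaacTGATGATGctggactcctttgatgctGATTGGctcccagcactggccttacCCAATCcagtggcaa
H2-DMb1: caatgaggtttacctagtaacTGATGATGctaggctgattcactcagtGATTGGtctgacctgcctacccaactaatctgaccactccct
H2-Ob: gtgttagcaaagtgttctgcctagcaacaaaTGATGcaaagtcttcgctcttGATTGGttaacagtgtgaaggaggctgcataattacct
H2-Oa: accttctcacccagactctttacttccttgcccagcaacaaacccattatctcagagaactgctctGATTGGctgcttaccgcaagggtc

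GATTGG began 49 bases before the start in H2-Aa, 60 in H2-Eb1, 62 in H2-DMb1, 58 in H2-Ob and 44 in H2-Oa. H2-Oa held GATTGG but no TGANG at that distance. For H2-DMa the reference gives 2 starts. The promoter of one held GATTGG 199 bases upstream, outside the window shown, and that of the other held none. The starts are those of RefSeq and can lie inside the GENCODE gene. A match of letters is a description of these windows and not a bound site.

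The genes covered a wide range of levels. Dividing CPM (read counts scaled to library depth) by the summed length of the annotated exons, the order over the 16 libraries was Cd74 at 2430 ± 479.5 CPM per kb, H2-Eb1 at 537 ± 133, H2-Ab1 at 489 ± 106, H2-Aa at 323 ± 56.8, H2-DMb1 at 127 ± 26.4, H2-DMa at 57.8 ± 15.6, Ciita at 10.5 ± 3.85, H2-Oa at 10.2 ± 5.01 and H2-Ob at 3.32 ± 1.95 (SD, n = 16). H2-Eb1 and H2-Ab1, and Ciita and H2-Oa, differed by less than 1 SD. The lengths join the exons of all annotated transcripts, so this order depends on the annotation, and by CPM the chain genes stood in another order. By mean CPM Cd74 ranked 7 of 30095 genes, H2-Ab1 49, H2-Aa 52 and H2-Eb1 63, whereas Ciita ranked 1873, H2-Ob 8786 and H2-Oa 9572. The other class II chain genes of the locus present in the table, H2-Eb2 and H2-DMb2, together had 29.3 to 115 CPM. H2-DMb2 is a close copy of H2-DMb1, and how reads were shared between them is uncertain.

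On mm10 with GENCODE M21, 7 genes lie within the class II region of chromosome 17: H2-Oa (34092340 to 34095234), H2-DMa (34119541 to 34139101), H2-DMb1 (34153072 to 34160230), H2-Ob (34238903 to 34254414), H2-Ab1 (34257689 to 34269419), H2-Aa (34282744 to 34287823, minus strand) and H2-Eb1 (34305867 to 34316674). Cd74 lies on chromosome 18 (60803848 to 60812652) and Ciita on chromosome 16 (10480059 to 10528418). All but H2-Aa are on the plus strand. Whether counting used strand is not given in the sources used here, so reads over exon bases shared with an opposite gene cannot be told apart. These were 329 bases of Ciita (with Dexi), 360 of H2-DMa (with Brd2) and 321 of H2-Oa (with BC051537).

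Some libraries stood apart. Anti-PD-1 4 Gy replicates 2 and 3, named the outlying pair from here, lay at 81.5 and 98.3 on the first principal component, where the others lay between -51.9 and 46.8, and had 6140 and 5364 genes without reads, against 2315 to 3904. One read was worth 0.0418 and 0.0319 CPM in them and 0.0155 to 0.0334 CPM in the others, so even H2-Oa at its lowest, 6.13 CPM, lay far above the floor of 3 reads (0.125 CPM in the shallowest library, counting error only). IgG 0 Gy replicate 3 had 647 CPM summed over 8 B cell markers, against 67.8 to 184 in the other unirradiated libraries. IgG 8 Gy replicate 2 had 380 CPM, against 91.6 to 185 in the other 8 Gy libraries. Mitochondrial transcripts took 1.01 to 3.73% at 0 Gy, 4.14 to 6.54% at 4 Gy and 1.69 to 8.23% at 8 Gy. The numbers after the S in the titles run from 13 to 17 at 0 Gy and from 26 to 36 after irradiation, and should they stand for separate preparations, these and the irradiation cannot be told apart.

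The comparison of 8 Gy with 0 Gy, averaged over both antibodies (n = 6 and 5), asks whether radiation changed class II transcription. Ciita rose, and no other of the 9 genes passed the test. The chain genes, Cd74 and both H2-DM genes had higher means at 8 Gy (H2-Eb1 and Cd74 lower ones under quantile normalization) and both H2-O genes lower means, all with an adjusted p above the threshold of 0.05. In bulk tissue a change in the number of expressing cells and a change in RNA per cell cannot be told apart.

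Ciita had 74.6 CPM in the lowest, 119 CPM in the median and 159.5 CPM in the highest 8 Gy library. At 0 Gy it had 48.8 and 40.1 CPM with anti-PD-1 and 87.9, 54.3 and 161 CPM with IgG. The doses overlapped: IgG 0 Gy replicate 3, the library with the highest B cell sum, lay above every 8 Gy library, and IgG 0 Gy replicate 1 lay above the lowest of them. The other 3 unirradiated libraries lay below every 8 Gy library. The log2 fold change was 0.85 ± 0.24 (SE, limma, adjusted p = 0.026), on the log2(CPM + 0.5) scale as are all fold changes here. This was 1 of 9 genes, where 20.7% of the 17546 genes tested passed and 4.68% as higher, and 1 gene is too few to set against these shares. Without IgG 0 Gy replicate 3 the value was 1.05, and the call ended without anti-PD-1 0 Gy replicate 1 (adjusted p = 0.0522) or 2 (0.0992), IgG 0 Gy replicate 1 (0.0559), anti-PD-1 8 Gy replicate 1 (0.0677) or 2 (0.0573), IgG 8 Gy replicate 2 (0.0653), and when only the compared groups were fitted (0.0576).

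Neither chain gene of I-A passed. H2-Aa, the alpha chain, had 942 to 1551 CPM with a median of 1311 at 8 Gy. At 0 Gy it had 1112 and 831 CPM with anti-PD-1 and 1106, 1014 and 1540 CPM with IgG, a difference of 0.25 ± 0.16 on the log2 scale (adjusted p = 0.276, 95% interval -0.08 to 0.59). H2-Ab1, the beta chain, had 966 to 1511 CPM with a median of 1255 at 8 Gy. At 0 Gy it had 1152 and 713 CPM with anti-PD-1 and 1280, 853 and 1536 CPM with IgG (0.24 ± 0.19, adjusted p = 0.386, interval -0.16 to 0.64). For both genes the ranges of the doses overlapped widely.

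H2-Eb1, the I-E beta chain, averaged 995 ± 181 CPM in 8 Gy lungs and 957 ± 298 CPM in unirradiated lungs (SD, n = 6 and 5), a difference of 0.12 ± 0.21 (adjusted p = 0.706) that was -0.05 under quantile normalization. Cd74, the invariant chain, averaged 4263 ± 651 CPM in 8 Gy lungs and 3744 ± 1112 CPM in unirradiated lungs, a difference of 0.26 ± 0.19 (adjusted p = 0.344) that was -0.24 under quantile normalization.

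Both subunits of H2-DM, the peptide editor, lay on the higher side. H2-DMa had 167 to 258 CPM with a median of 214 at 8 Gy. At 0 Gy it had 155 and 104 CPM with anti-PD-1 and 177, 110 and 251 CPM with IgG (0.50 ± 0.20, adjusted p = 0.096). H2-DMb1 averaged 223 ± 28.45 CPM in 8 Gy lungs and 181 ± 52.4 CPM in unirradiated lungs (0.37 ± 0.17, adjusted p = 0.142). Leaving out IgG 0 Gy replicate 3 brought both past the threshold, H2-DMa at 0.64 (adjusted p = 0.0212) and H2-DMb1 at 0.47 (adjusted p = 0.0469), so 3 of the 9 genes were then called. This library was the highest unirradiated one in all 9 genes, so leaving it out raises each of their differences from 0 Gy. Over all 17546 genes, leaving out 1 library gave 2011 to 4413 calls in this comparison.

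The subunits of H2-O went the other way without passing the test. H2-Oa had 6.13 to 21.7 CPM with a median of 12.0 at 8 Gy. At 0 Gy it had 13.7 and 11.2 CPM with anti-PD-1 and 14.4, 12.3 and 37.5 CPM with IgG (-0.35 ± 0.28, adjusted p = 0.388). H2-Ob had 7.15 to 30.7 CPM with a median of 14.75 at 8 Gy. At 0 Gy it had 12.4 and 20.2 CPM with anti-PD-1 and 15.99, 12.2 and 51.5 CPM with IgG (-0.32 ± 0.35, adjusted p = 0.55). For both genes 1 unirradiated library, IgG 0 Gy replicate 3, lay above all the others, and the remaining 4 lay within the range of the 8 Gy libraries.

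**Figure D1:**
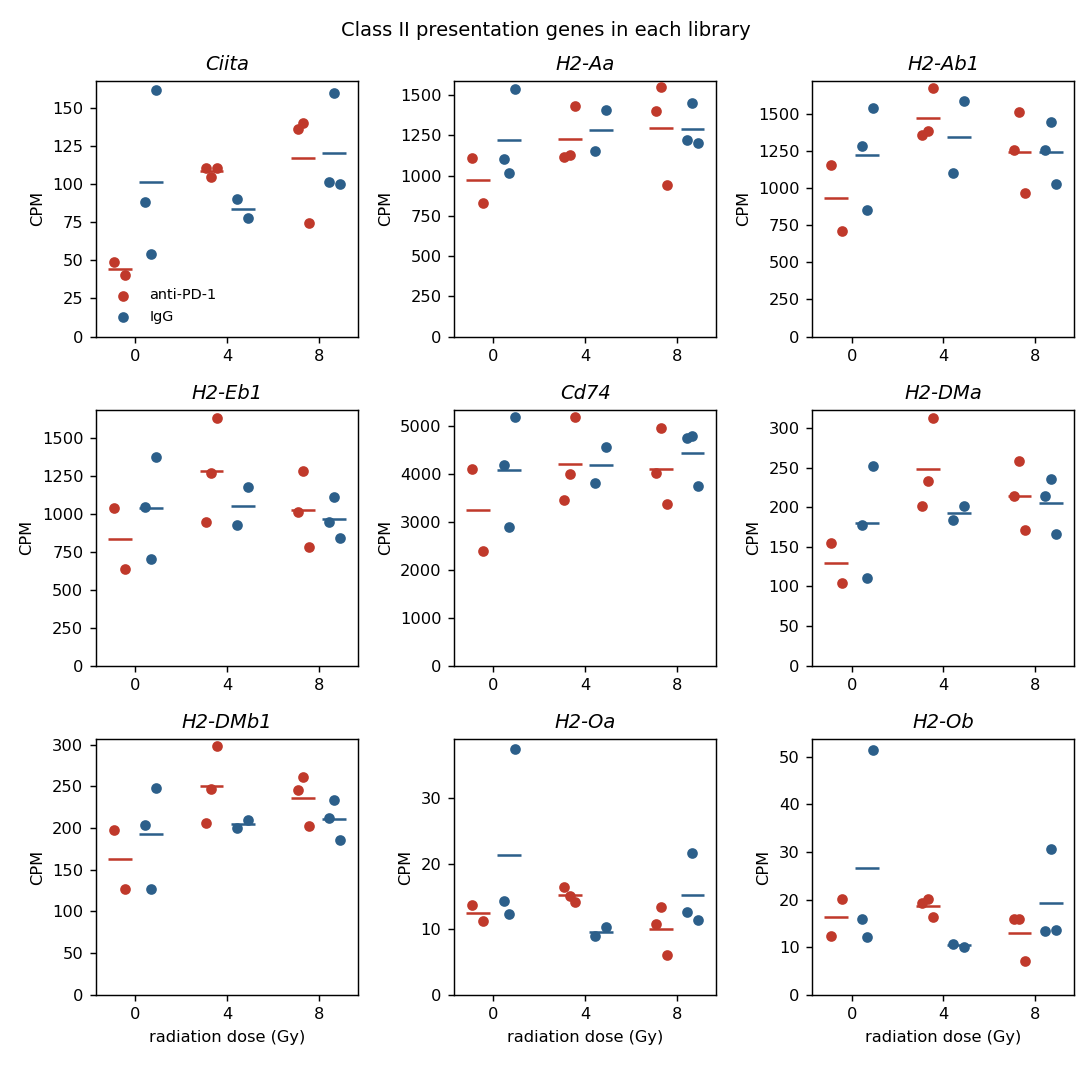
CPM of each of the 9 genes (vertical axes, starting at 0) by radiation dose in Gy, with 1 point per library, red for anti-PD-1 and blue for IgG, and a bar at each group's mean. Ciita lay at 74.6 to 159.5 CPM at 8 Gy and at 48.8 and 40.1 CPM in the 2 unirradiated anti-PD-1 libraries, while the IgG 0 Gy library with 161 CPM of Ciita also had the highest H2-Oa (37.5 CPM) and H2-Ob (51.5 CPM).

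Of the 9 genes 7 had a higher mean log2 value at 8 Gy, with a median log2 fold change of 0.25. Over all genes tested the median was -0.09 and 40.2% lay higher. Quantile normalization moved the median of all genes to 0.03 and that of the 9 genes also to 0.03, with 5 on the higher side. Setting the library medians equal gave 0.02 and 0.36, with 7 on the higher side. MHC class I genes and their peptide loaders, given for comparison, had a median of 0.37, and 0 of 10 passed (limma, all genes adjusted together), with 4 at an unadjusted p under 0.05. Without IgG 0 Gy replicate 3, 4 of these 10 passed as higher.

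Genes that act on Ciita, not all in the same direction, were read beside it. Of all genes 4.68% passed as higher at this dose. Of 9 genes of the interferon gamma pathway 5 rose and 1 fell. Socs1, a feedback inhibitor of the pathway, rose by 1.47 ± 0.36, the transcription factor genes Irf2 by 0.41 ± 0.10 and Irf1 by 0.93 ± 0.26 and Ifng itself by 1.28 ± 0.43 (adjusted p = 0.0474), while the receptor gene Ifngr1 fell by 0.34, a call that ended with library medians set equal (-0.23, adjusted p = 0.107). Without anti-PD-1 0 Gy replicate 2 the count that rose was 1, and without IgG 8 Gy replicate 2 it was 3. Of 6 other genes known to act on Ciita 3 rose: Spi1, encoding the myeloid factor PU.1 (0.73 ± 0.14), Irf8 (0.73 ± 0.18) and Tgfb1 (0.44 ± 0.14). The calls of Ifng and Tgfb1 were each kept in 4 of 16 leave-one-out fits. The part of these genes in the rise of Ciita was not tested.

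None of the partners of Ciita on the promoter passed as higher. Of 7 genes, Rfx5, Rfxap, Rfxank, Nfya, Nfyb, Nfyc and Creb1, 1 passed: Rfxank, a subunit of the factor on the X box, fell to 21.2 ± 3.61 CPM at 8 Gy, against 31.6 ± 3.07 CPM at 0 Gy (-0.59 ± 0.12, adjusted p = 0.00476). Rfx5 had 28.75 ± 4.93 CPM in 8 Gy lungs and 35.1 ± 3.925 CPM in unirradiated lungs (adjusted p = 0.104). Among 11 genes of endosomal proteolysis and class II turnover only Ifi30, the thiol reductase of the endosome, passed, at 401 ± 62.05 CPM in 8 Gy lungs and 294 ± 67.8 CPM in unirradiated lungs (0.52 ± 0.12, adjusted p = 0.0108). Ctss, the protease that trims the invariant chain, averaged 1402.5 ± 104 CPM in 8 Gy lungs and 1137 ± 389 CPM in unirradiated lungs (adjusted p = 0.0868).

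Markers of class II cells were read beside these values. Of 10 macrophage markers 6 rose (3 without anti-PD-1 0 Gy replicate 2), and their summed level was 2400.4 to 3495 CPM at 8 Gy and 1384 to 2275 CPM at 0 Gy, without overlap. Of 6 inflammatory monocyte markers 3 rose. Of 8 B cell markers 0 passed in limma and 0 had an unadjusted p under 0.05, with sums of 91.6 to 380 CPM at 8 Gy and 67.8 to 647 CPM at 0 Gy. Of 10 dendritic cell markers 1 passed, Flt3, which fell to 7.53 ± 2.67 CPM at 8 Gy, against 14.1 ± 4.035 CPM at 0 Gy, and the sums were 475 to 641 CPM at 8 Gy and 373 to 660 CPM at 0 Gy. Of 10 alveolar type 2 markers 1 passed, as lower, with sums of 1675 to 3123 CPM at 8 Gy and 1142 to 5649 CPM at 0 Gy. No listed marker was at 0 in any library, and the part of these cells in the rise of Ciita was not tested. Of the other lists, 0 of 7 T cell, 0 of 5 plasma cell and 0 of 5 plasmacytoid dendritic cell markers passed in limma, with 0, 2 and 0 at an unadjusted p under 0.05, while 2 of 9 alveolar macrophage and 1 of 6 endothelial markers fell. Of 6 co-stimulation genes 2 rose, Cd40 by 1.02 ± 0.27 and Cd80 by 0.88 ± 0.20.

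**Figure D2:**
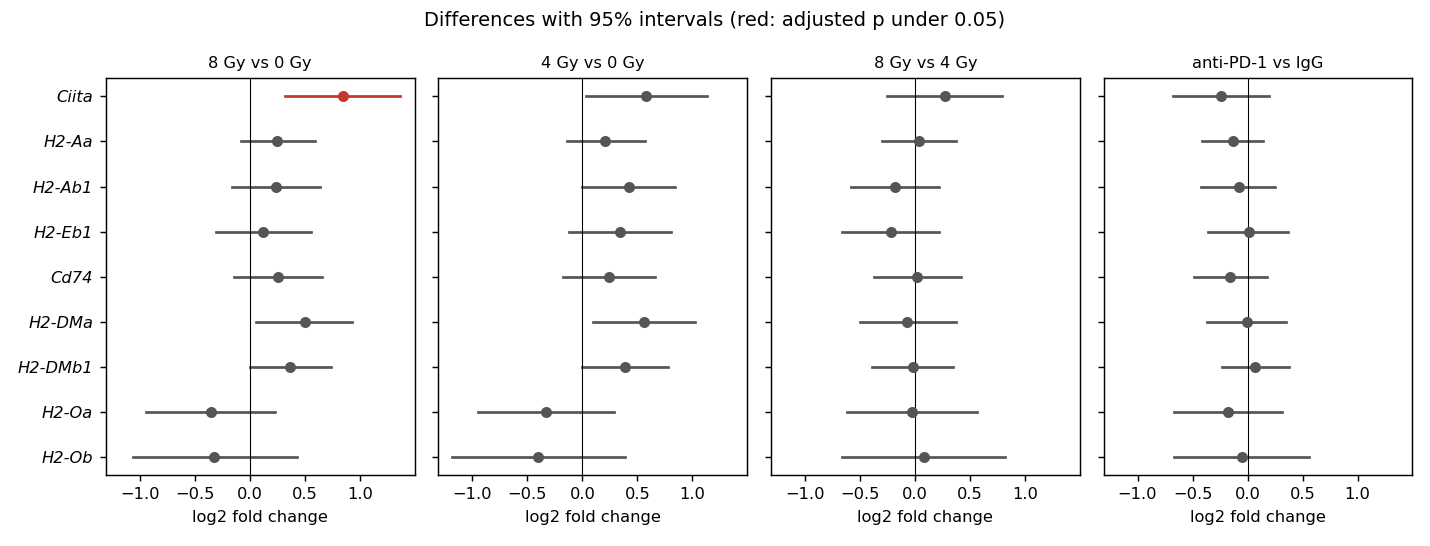
Log2 fold changes (horizontal axes, log2(CPM + 0.5) scale) of the 9 genes in 4 comparisons, with points for the estimates, lines for 95% intervals and red where the adjusted p was under 0.05. Ciita at 8 Gy against 0 Gy (0.85) is the 1 red point, and for the chain genes and Cd74 the intervals of all 4 comparisons include 0 or touch it.

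The same comparison was made for 4 Gy against 0 Gy (n = 5 each), and 0 of the 9 genes passed in limma, with 3 at an unadjusted p under 0.05, where 17.5% of all genes passed. That share rests on the design and on few libraries: 3076 genes were called here, 131 when only the compared groups were fitted and 91 without the outlying pair. The median log2 fold change of the 9 genes was 0.34, against -0.14 over all genes, and 7 lay higher (5 under quantile normalization, with a median of 0.12, against -0.05 over all genes). H2-DMa had the lowest adjusted p, 0.0746. It had 201, 233 and 312 CPM with anti-PD-1 and 184 and 202 CPM with IgG at 4 Gy, against 104 to 251 CPM with a median of 155 at 0 Gy, a difference of 0.56 ± 0.21. The 5 libraries at 4 Gy exceeded all unirradiated ones except IgG 0 Gy replicate 3. H2-Ab1 averaged 1417 ± 222 CPM in 4 Gy lungs and 1107 ± 330 CPM in unirradiated lungs (0.42 ± 0.20, adjusted p = 0.132), and Ciita 98.7 ± 14.4 CPM in 4 Gy lungs and 78.5 ± 49.8 CPM in unirradiated lungs (0.58 ± 0.26, adjusted p = 0.117).

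Without IgG 0 Gy replicate 3, 3 genes passed at 4 Gy: Ciita at 0.78 (adjusted p = 0.0149), H2-DMa at 0.70 (0.0164) and H2-DMb1 at 0.49 (0.0419). Without anti-PD-1 4 Gy replicate 1, 1 passed, H2-DMa at 0.63 (0.0441). Over all 17546 genes, leaving out 1 library gave 97 to 5747 calls in this comparison. Of the interferon gamma pathway 3 of 9 rose at 4 Gy (among them Socs1 by 1.70 ± 0.38 and Irf1 by 0.91 ± 0.27) and Ifngr1 fell by 0.52. Of 10 class I genes 3 rose: Tap2, a peptide transporter subunit, by 0.84 ± 0.25, Tapbp, its link to class I, by 0.70 ± 0.20 and the proteasome subunit gene Psmb10 by 0.91 ± 0.27. The median of that list was 0.61. All these calls in the interferon gamma and class I lists ended without the outlying pair (Socs1 1.07, adjusted p = 0.137; Tapbp 0.53, 0.24) and when only the compared groups were fitted.

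Alveolar type 2 transcripts differed between the doses. Their 10 markers summed to 3400 ± 1743 CPM at 0 Gy, 10740 ± 3181 CPM at 4 Gy and 2178 ± 530.1 CPM at 8 Gy (SD, n = 5, 5 and 6), and 9 of 10 rose at 4 Gy (limma), a count that was 0 without the outlying pair and when only the compared groups were fitted. The 9 class II genes summed to 7388 ± 2157 CPM at 0 Gy, 8633 ± 1355 CPM at 4 Gy and 8376 ± 1305 CPM at 8 Gy. The class II sums of the 3 doses lay within 1 SD of each other.

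Between the doses, at 8 Gy against 4 Gy (n = 6 and 5), 0 of the 9 genes passed in limma and 0 had an unadjusted p under 0.05, where 34.3% of all genes passed. Fold changes ran from -0.22 (H2-Eb1) to 0.27 (Ciita), with a median of -0.02. For H2-Aa the interval was -0.30 to 0.37 and for Cd74 -0.37 to 0.42. All 10 alveolar type 2 markers fell in this comparison, with a median of -1.87 (8 of 10 without the outlying pair), and 3 of 10 macrophage markers rose (1 without these libraries). Over all genes 6011 were called, and 2200 without them.

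Anti-PD-1 was compared with IgG over the 3 doses (n = 8 each), which asks whether the checkpoint antibody changed class II transcription. Again 0 of the 9 genes passed in limma, 0 had an unadjusted p under 0.05, and 0.234% of all genes passed. The lowest adjusted p was 0.525, for Ciita, which averaged 95.7 ± 37.5 CPM with anti-PD-1 and 104 ± 37.8 CPM with IgG (-0.24 ± 0.20, interval -0.68 to 0.19). H2-Aa averaged 1189 ± 251 CPM with anti-PD-1 and 1262 ± 185 CPM with IgG (-0.13 ± 0.13, interval -0.41 to 0.14), and Cd74 averaged 3925 ± 891 CPM with anti-PD-1 and 4233 ± 736 CPM with IgG (-0.16 ± 0.15). Among all listed genes 1 passed, Itgax, which encodes the dendritic and macrophage integrin CD11c and fell with the antibody (-0.56 ± 0.10, adjusted p = 0.0374). That call was kept in 4 of 16 leave-one-out fits, with values from -0.63 to -0.49, and ended without the outlying pair (-0.44, adjusted p = 0.237).

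The antibodies were then taken apart. With anti-PD-1, at 4 Gy against 0 Gy (n = 3 and 2), Ciita and H2-DMa rose, 2 of 9 genes, where 39.3% of all genes passed and 13.4% as higher. Ciita had 111, 104 and 111 CPM at 4 Gy, against 48.8 and 40.1 CPM at 0 Gy (1.29 ± 0.36, adjusted p = 0.0152). H2-DMa had 201, 233 and 312 CPM at 4 Gy, against 155 and 104 CPM at 0 Gy (0.94 ± 0.30, adjusted p = 0.0253). In neither gene did the doses overlap, but neither did they in H2-Aa, H2-Ab1, H2-DMb1 and H2-Oa, which were not called. Groups of 3 and 2 libraries separate easily, and the share of all genes that did so was not counted. All 9 genes had higher means at 4 Gy in this arm (8 under quantile normalization), with a median of 0.63, against -0.13 over all genes.

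The calls of that arm rest on few libraries. Both calls ended without replicates 2 and 3 of the 4 Gy group, the libraries that stood apart (Ciita 1.31, adjusted p = 0.217; H2-DMa 0.66, 0.368), and without anti-PD-1 0 Gy replicate 2 (Ciita 1.15, 0.107; H2-DMa 0.66, 0.217), and that of H2-DMa also without 4 Gy replicate 2 (0.0513) or 3 (0.0976) alone. The count was 4 without anti-PD-1 0 Gy replicate 1, IgG 0 Gy replicate 2 or 3, or anti-PD-1 4 Gy replicate 1, and with library medians set equal. Over all genes, leaving out 1 library gave 1536 to 8038 calls here. Beside the calls 3 of 8 B cell markers rose, Cd79a by 1.92 ± 0.62, Cd79b by 1.73 ± 0.61 and Cd22 by 0.95 ± 0.34, and the B cell sums were 225 to 277 CPM at 4 Gy and 67.8 to 109 CPM at 0 Gy. Of 10 macrophage markers 5 rose and 1 fell, with sums of 1792 to 2497 CPM at 4 Gy and 1384 to 1624 CPM at 0 Gy, and 2 of 7 T cell and 6 of 10 alveolar type 2 markers rose. Of 10 dendritic cell markers 2 rose, Batf3 by 1.88 ± 0.44 and Itgax by 0.79 ± 0.18, with sums of 534 to 609 CPM at 4 Gy and 373 to 441 CPM at 0 Gy, without overlap. Of 9 alveolar macrophage markers 2 rose, and of 6 monocyte markers 1 rose and 2 fell. Without the outlying pair, 0 markers of these lists were called (limma), and 28 of all genes were, against 6894 with them. The part of these cells in the calls was not tested. Among the interferon gamma pathway and the other genes known to act on Ciita, Socs1 (2.88 ± 0.53), Irf8 (1.5 ± 0.27), Irf1 (1.43 ± 0.38) and Spi1 (1.31 ± 0.21) were called higher in this arm. Ifngr1 (-0.84 ± 0.14) and Jak2 (-0.66 ± 0.23) were called lower, and the part of these genes was not tested either.

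With anti-PD-1 at 8 Gy against 0 Gy (n = 3 and 2), 0 of 9 genes passed in limma, 3 had an unadjusted p under 0.05, and 2.83% of all genes passed. Ciita had 136, 140 and 74.6 CPM at 8 Gy, against 48.8 and 40.1 CPM at 0 Gy, and did not overlap between the doses (1.34 ± 0.36, adjusted p = 0.0652). H2-DMa and H2-DMb1 did not overlap between the doses either. Their lowest 8 Gy and highest 0 Gy values were 171 and 155 CPM for H2-DMa and 203 and 198 CPM for H2-DMb1. Groups of this size separate easily, and the share of all genes that did so was not counted. The count was 1 without IgG 0 Gy replicate 2 or 3 or anti-PD-1 8 Gy replicate 3, and with library medians set equal. Over all genes, leaving out 1 library gave 17 to 892 calls here. At 8 Gy against 4 Gy in this arm 0 passed in limma, 0 had an unadjusted p under 0.05, and 41.8% of all genes passed (7340 genes, and 0 without the outlying pair). Fold changes ran from -0.63 ± 0.37 (H2-Oa) to 0.06 ± 0.21 (H2-Aa).

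With IgG Ciita did not pass at either dose. At 8 Gy against 0 Gy (n = 3 each) it had 101, 159.5 and 100.3 CPM, against 87.9, 54.3 and 161 CPM (0.36 ± 0.33, adjusted p = 0.525). At 4 Gy against 0 Gy (n = 2 and 3) it had 90.0 and 77.9 CPM, within the unirradiated range (-0.13 ± 0.36, adjusted p = 0.921). At 8 Gy 0 of the 9 genes passed in limma, 0 had an unadjusted p under 0.05, and 10.6% of all genes passed. At 4 Gy 0 passed, 1 had an unadjusted p under 0.05, and 0.00570% of all genes passed. At 8 Gy against 4 Gy with IgG 0 of 9 passed, 0 had an unadjusted p under 0.05 and 7.58% of all genes passed, with fold changes from -0.12 ± 0.31 (H2-Eb1) to 0.74 ± 0.52 (H2-Ob). The gene with the unadjusted p under 0.05 was H2-Oa at 4 Gy, with 8.95 and 10.3 CPM, against 14.4, 12.3 and 37.5 CPM at 0 Gy (-0.94 ± 0.41, adjusted p = 0.408).

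**Figure D3:**
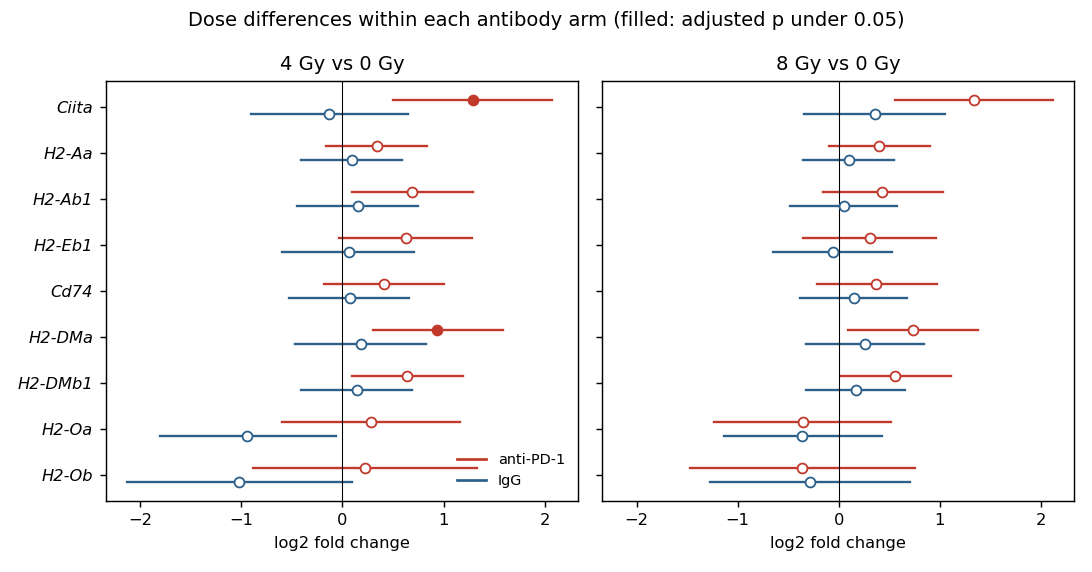
Log2 fold changes of the 9 genes at 4 Gy (left) and 8 Gy (right) against 0 Gy within the anti-PD-1 arm (red, upper of each pair) and the IgG arm (blue), with 95% intervals and filled points where the adjusted p was under 0.05. Ciita lay at 1.29 and 1.34 with anti-PD-1 and at -0.13 and 0.36 with IgG, and the filled points are Ciita and H2-DMa at 4 Gy with anti-PD-1.

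The difference between the arms was tested itself and was not called for any of the 9 genes. For Ciita the anti-PD-1 effect at 4 Gy minus that at 0 Gy was 1.42 ± 0.52 (adjusted p = 0.0804), 1 of the 9 genes had an unadjusted p under 0.05 in limma, 0 passed, and 9.08% of all genes passed (1593 genes, and 0 when only the compared groups were fitted or without the outlying pair). The smallest difference was that of H2-Aa, 0.25 ± 0.33. Without IgG 0 Gy replicate 2 the count was 2, and over all genes leaving out 1 library gave 0 to 4824 calls. For the effect at 8 Gy minus that at 0 Gy, 0 of 9 passed, 0 had an unadjusted p under 0.05, and the differences ran from -0.08 ± 0.69 (H2-Ob) to 0.98 ± 0.49 (Ciita, adjusted p = 0.997), while 0% of all genes passed. For 8 Gy minus 4 Gy, 0 of 9 and 0% of all genes passed (1535 genes when only the compared groups were fitted), and 1 of the 9, H2-Oa, had an unadjusted p under 0.05 (-1.21 ± 0.55, adjusted p = 0.173). The differences there ran from -1.32 ± 0.69 (H2-Ob) to 0.05 ± 0.31 (H2-Aa).

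At a single dose none of the 9 genes passed between the antibodies. Unirradiated lungs given anti-PD-1 had lower means of all 9 genes than those given IgG, with a median of -0.39, and 0 passed in limma, 1 had an unadjusted p under 0.05, and 0.274% of all genes passed. That gene was Ciita, at 48.8 and 40.1 CPM with anti-PD-1, against 87.9, 54.3 and 161 CPM with IgG, without overlap (-1.04 ± 0.36, adjusted p = 0.304). IgG 0 Gy replicate 3 was the highest unirradiated library in all 9 genes and raises the IgG means. In the remaining IgG libraries H2-Ob had 15.99 and 12.2 CPM, against 12.4 and 20.2 CPM with anti-PD-1, while Ciita stayed above both anti-PD-1 libraries. Groups of 2 and 3 libraries separate easily, and the share of all genes that did so was not counted. The sums of B cell (67.8 to 109 CPM with anti-PD-1, against 129 to 647 CPM with IgG), dendritic cell (373 to 441 CPM, against 612 to 660 CPM) and macrophage markers (1384 to 1624 CPM, against 2193 to 2275 CPM) did not overlap either, and 1 of 10 macrophage markers passed, the only call in these 3 lists. The T cell sums did overlap (148 to 228 CPM with anti-PD-1, against 188 to 423 CPM with IgG). So did those of monocytes, alveolar macrophages, plasma cells, plasmacytoid dendritic cells, alveolar type 2 cells and endothelium. The part of any of these cells in the lower values was not tested. At 4 Gy 0 passed in limma, 0 had an unadjusted p under 0.05, and 15.5% of all genes passed (2714 genes, and 0 without the outlying pair), with fold changes from -0.06 ± 0.23 (H2-Aa) to 0.80 ± 0.52 (H2-Ob). At 8 Gy 0 passed, 0 had an unadjusted p under 0.05, and 0.00570% of all genes passed, with fold changes from -0.58 ± 0.37 (H2-Oa) to 0.17 ± 0.23 (H2-DMb1).

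The opposite sides taken by H2-O and H2-DM were compared within each library as the log2 ratio of their CPM, which the scaling of the library does not touch. These ratios were chosen after the values had been seen, because the genes had taken opposite sides. Their p-values are therefore descriptions and not those of a test set in advance. The adjustment covers only the ratios chosen, and the permutations did not keep the antibodies apart. For the alpha subunits, H2-Oa over H2-DMa, the ratio averaged -4.13 ± 0.46 at 8 Gy, with a range of -4.80 to -3.44, and -3.25 ± 0.34 at 0 Gy, with a range of -3.62 to -2.75 (SD, n = 6 and 5). It was lower at 8 Gy by 0.88 on the log2 scale (difference -0.88, exact permutation test, two-sided, p = 0.0108, adjusted p = 0.0476 over 6 tests). At 4 Gy it averaged -4.14 ± 0.35, with a difference of -0.89 from 0 Gy (exact permutation test, p = 0.0159, adjusted p = 0.0476). The overlap was small: 1 library at 8 Gy, IgG replicate 2, and 1 at 4 Gy, anti-PD-1 replicate 1, reached the unirradiated range.

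Within the arms the difference at 8 Gy was -1.11 with anti-PD-1 and -0.62 with IgG, and at 4 Gy -0.66 with anti-PD-1 and -1.15 with IgG. Of the 16 runs that left out 1 library, 5 kept each call after adjustment, those without IgG 0 Gy replicate 1, anti-PD-1 4 Gy replicate 1 or 2, IgG 4 Gy replicate 2 or IgG 8 Gy replicate 2, and the adjusted p was 0.0649 or 0.0714 in the rest. The difference itself stayed between -1.02 and -0.75 at 8 Gy and between -1.02 and -0.76 at 4 Gy. Without the outlying pair it was -0.88 at 8 Gy (adjusted p = 0.0649) and -0.84 at 4 Gy (0.107). The pair is not in the 8 Gy comparison, where only the adjustment changed.

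For the beta subunits, H2-Ob over H2-DMb1, the differences had the same direction but did not pass, at -0.72 for 8 Gy (exact permutation test, p = 0.108, adjusted p = 0.162) and -0.77 for 4 Gy (exact permutation test, p = 0.0794, adjusted p = 0.159). Between 8 Gy and 4 Gy neither ratio passed, with differences of 0.00 and 0.05 (exact permutation tests, adjusted p = 0.985 for both). Since H2-O is mainly a B cell gene, the B cell sums given above stand beside it: 0 of the 8 B cell markers were called at either dose against 0 Gy in limma, and 0 had an unadjusted p under 0.05.

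**Figure D4:**
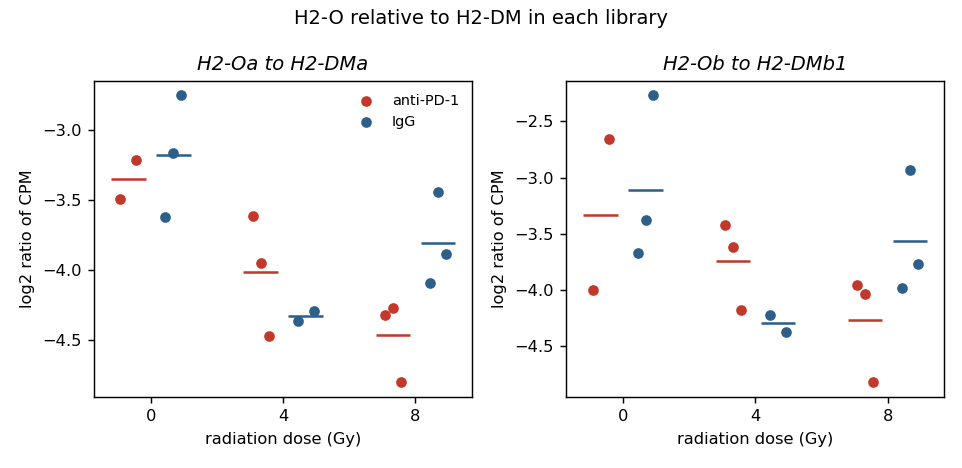
Log2 ratio of CPM of H2-Oa to H2-DMa (left) and of H2-Ob to H2-DMb1 (right) by radiation dose in Gy, 1 point per library, red for anti-PD-1 and blue for IgG, with bars at group means. The H2-Oa ratio lay between -3.62 and -2.75 at 0 Gy, between -4.47 and -3.61 at 4 Gy and between -4.80 and -3.44 at 8 Gy.

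The levels of the genes were compared across libraries. Correlated with H2-Ab1 over the 16 libraries on the log2 scale, H2-Eb1 had a Pearson r of 0.938 (Spearman rho 0.935), H2-DMa 0.921 (0.868), Cd74 0.908 (0.847), H2-DMb1 0.888 (0.856), H2-Aa 0.858 (0.785) and Ciita 0.747 (0.682). Each passed a permutation test of r, two-sided, adjusted over 8 relations, the highest adjusted p being 0.00109 for Ciita, and of rho, the highest being 0.00597. H2-Oa had 0.484 (adjusted p = 0.0687; rho 0.544, adjusted p = 0.0373) and H2-Ob 0.341 (adjusted p = 0.198; rho 0.371, adjusted p = 0.16, permutation tests). Without the 2 libraries farthest from the median of H2-Ab1, anti-PD-1 0 Gy replicate 2 and IgG 0 Gy replicate 2, r lay between 0.742 and 0.894 for the first 5 genes, at 0.492 for Ciita, at 0.600 for H2-Oa and at 0.559 for H2-Ob. With group means removed, so that only differences within groups count, r lay between 0.897 and 0.951 for the first 5, at 0.751 for Ciita, at 0.747 for H2-Oa and at 0.507 for H2-Ob. Quantile normalization gave 0.512 for Cd74, 0.666 for Ciita, 0.642 for H2-Oa, 0.477 for H2-Ob and 0.784 to 0.936 for the rest, so the order of the genes depends on the scaling. Differences between these correlations were not tested.

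Several of the genes went with B cell markers. Against the summed level of the 8 markers, r was 0.841 for H2-Ob (permutation test, adjusted p = 0.00405 over 45 relations; rho 0.700, adjusted p = 0.0154), 0.820 for H2-Oa (0.00465; rho 0.776, 0.00567) and 0.768 for Ciita (0.00585; rho 0.818, 0.00337), 0.618 for H2-DMa (0.0397; rho 0.768, 0.00652), 0.503 for H2-DMb1 (0.0898; rho 0.712, 0.0139) and 0.521 to 0.588 for the chain genes and Cd74 (adjusted p from 0.0524 to 0.0838). By rho H2-Ab1 (0.671, adjusted p = 0.0208) and H2-Eb1 (0.615, adjusted p = 0.0397) passed as well, and H2-Aa (0.559, 0.0623) and Cd74 (0.571, 0.0562) did not (permutation tests). For H2-Ob, H2-Oa and Ciita, without the 2 libraries farthest from the median of the B cell sum, IgG 0 Gy replicate 3 and anti-PD-1 0 Gy replicate 1, r was 0.771, 0.870 and 0.679. With group means removed it was 0.968, 0.894 and 0.871. IgG 0 Gy replicate 3 was highest at its dose in all 9 genes as well as in these markers.

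**Figure D5:**
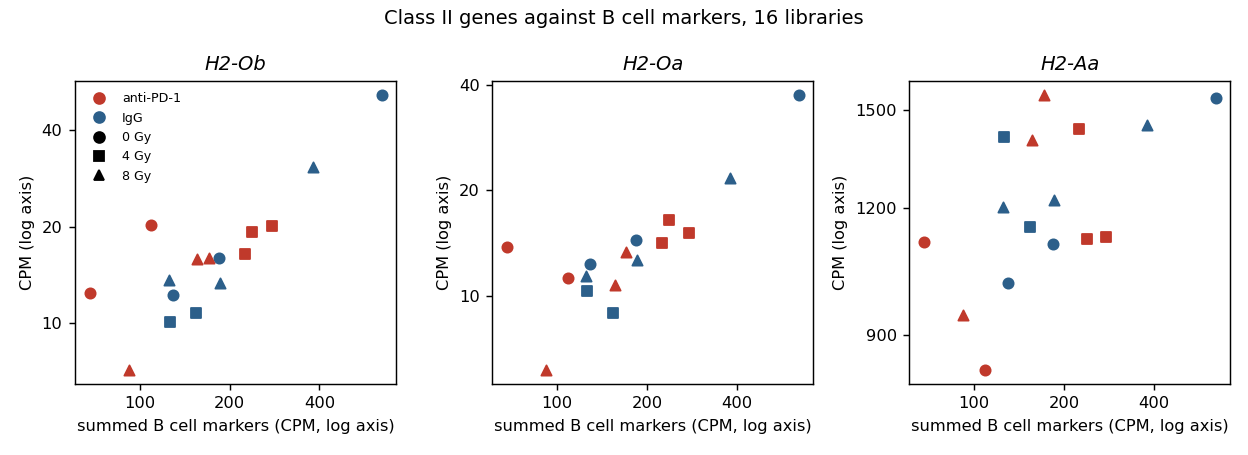
CPM of H2-Ob, H2-Oa and H2-Aa (vertical log axes) against the summed CPM of 8 B cell markers (horizontal log axes) in the 16 libraries, red for anti-PD-1 and blue for IgG, with circles, squares and triangles for 0, 4 and 8 Gy. H2-Ob and H2-Oa climb along the marker sum (r = 0.841 and 0.820 on the log2 scale), and the library at the top right of each panel is IgG 0 Gy replicate 3, with a sum of 647 CPM.

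All 9 genes also went with the sum of 7 T cell markers, which are not class II genes in the mouse, with r between 0.628 (H2-Ab1) and 0.772 (Ciita, rho 0.891) and adjusted p from 0.00465 to 0.0331 (permutation tests of r). By rho H2-Ab1 missed the threshold (0.579, adjusted p = 0.056, permutation test). Without the 2 libraries farthest from the median of that sum, IgG 0 Gy replicate 3 and IgG 4 Gy replicate 2, r lay between 0.532 (H2-Ob) and 0.849 (H2-Aa). With group means removed it ran from 0.744 (H2-Ob) to 0.921 (H2-Aa). Against the sums of dendritic cell, macrophage and alveolar type 2 markers 0 of the 27 relations had an adjusted p under 0.05 by r. Sums of B and T cell markers share libraries and depth with the genes, so these are descriptions of how the libraries differ.

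The genes most like class II across all 17546 were found by their correlation with the mean log2 level of H2-Aa, H2-Ab1, H2-Eb1 and Cd74, given as a description. Over the 16 libraries the closest outside these 9 genes were Chst2 (r = 0.871), a sulfotransferase gene, Il2rg (0.867), the common cytokine receptor chain, Xcl1 (0.864), a chemokine of cytotoxic cells that draws dendritic cells, Dnase1l3 (0.848), Lta (0.836), H2-DMb2 (0.831), Cd40 (0.823) and Tlr12 (0.822). With group means removed they were Ctsw (0.941), Il2rg (0.939), Cd4 (0.922), Tnfrsf18 (0.921), Tlr12 (0.915), Pdcd1lg2 (0.915), Tnfrsf9 (0.913) and Xcl1 (0.912). H2-DMa (0.929) and H2-DMb1 (0.903) lay above all 8 of the first set, Ciita (0.765) below them. The 99th percentile of all genes was 0.693.

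Other steps of class II control stood at both ends of this ordering. In the interferon gamma pathway Irf1 had 0.764, Socs1 0.732 and Ifng 0.724, and the receptor gene Ifngr1 -0.65. In the proteolysis and turnover list Ifi30 had 0.747, Ctss 0.014, and March8, a ubiquitin ligase of the family that removes class II from the surface, -0.714 (-0.813 with group means removed), rank 17321 of 17546. March8 averaged 79.65 ± 15.1 CPM at 0 Gy, 58.9 ± 13.9 CPM at 4 Gy and 67.4 ± 8.11 CPM at 8 Gy. Over both antibodies it did not pass at 8 Gy against 0 Gy (-0.23 ± 0.13, adjusted p = 0.235). With anti-PD-1 it fell at 4 Gy against 0 Gy (-0.72 ± 0.20, adjusted p = 0.0134) and rose at 8 Gy against 4 Gy (0.52 ± 0.18, adjusted p = 0.0307), and both calls ended without the outlying pair (adjusted p = 0.267 and 0.42), that at 8 Gy also under quantile normalization (0.41, adjusted p = 0.0641). The partners of Ciita on the promoter lay between -0.307 (Creb1) and 0.413 (Nfyc), and of the class I genes B2m had -0.163 and Psmb9 0.802.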

How the data were processed

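RNA was sequenced from 16 pooled mouse lung libraries. The authors deposited 1 table of CPM with 0.0001 added to every value, per the file's values. It was made with STAR and Partek on mm10, per the submitters' processing notes. Tool versions, the annotation and the way reads were counted, also by strand, are not given. Whole reads could not be recovered (57.9 to 63.8% of low values were whole within 0.02), so no count model was used. One read was worth 0.0155 to 0.0418 CPM.

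The added constant was left in the values and removed only to find the worth of 1 read. Of 25 symbols turned into dates 24 were restored, and 29368 of 30095 genes were matched to GENCODE M21. Genes of at least 1 CPM in at least 2 libraries (17546, all 9 class II genes among them) were tested with limma 3.58.1 (trend, robust; R 4.3.3) on log2(CPM + 0.5), in 1 fit of 6 group means over all libraries with 16 comparisons. P-values were adjusted by Benjamini-Hochberg over all genes, with a threshold of 0.05. Comparisons over both antibodies or all doses are averages of group means in this fit, while the means ± SD printed beside them weight libraries equally. The fit was tested on simulated data. Comparisons that share libraries are not independent of each other.

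Permutation tests were coded in Python with numpy 2.4.6 (ranks from scipy 1.17.1), with 100000 resamples for correlations (the smallest p they can give is 1e-05) and exact enumeration for ratios. The 9 genes and all lists were chosen with earlier results of these data known. All 9 genes are counted in every comparison and given by values or by their range. Of each other list the calls are counted and up to 4 genes of lowest p are named, as are the 8 genes most like class II by each of 2 measures. The ratios, the marker correlations, and the values of Irf1 and Ifng at 8 Gy, of Rfx5, Ctss and March8 and of the cell markers and the genes acting on Ciita within the anti-PD-1 arm were chosen after values were seen. Alternatives were other pseudocounts, filters and normalizations, a fit of the compared groups alone, a replicate block and leaving out libraries. Of 131 other listed symbols 126 were present. H2-Ea and H2-Ea-ps were not analysed here. The values of 1 listed gene are not reported here, though the counts of its list include it.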

Additional observations from a re-analysis of the deposited data

Results flagged for a closer look

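Among 27 sets of libraries (each of the 9 genes at each dose), 3 had a library far from the others by Dixon's criterion, where chance gives about 1 in 20. H2-Oa had 37.5 CPM in IgG 0 Gy replicate 3, a gap of 0.88 of the range of the 5 unirradiated libraries. H2-Ob had 51.5 CPM in that library, with a gap of 0.797 of the range. H2-Ob also had 30.7 CPM in IgG 8 Gy replicate 2, with a gap of 0.626 of the range of the 6 libraries at 8 Gy, just over the critical value of 0.625. These libraries had the highest B cell sums of their doses, 647 CPM and 380 CPM, and the part of B cells in the values was not tested.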

How the results depend on the processing

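Over pseudocounts, filters, normalizations and left-out libraries calls changed in Ciita, H2-DMa and H2-DMb1 and in the ratio of H2-Oa to H2-DMa. Where a value below changed sign or side, the cause was not tested. Quantile normalization reversed H2-Eb1 (-0.05) and Cd74 (-0.24) at 8 Gy against 0 Gy, H2-Aa (-0.06) and Cd74 (-0.31) at 4 Gy against 0 Gy, H2-Oa at 8 Gy against 4 Gy (0.01) and Cd74 for anti-PD-1 against IgG (0.01). With library medians set equal 1 gene was called at 8 Gy and 4 at 4 Gy against 0 Gy with anti-PD-1, and H2-Eb1 for anti-PD-1 against IgG was -0.03. Fitting only the compared groups left 0 calls at 8 Gy against 0 Gy. Without anti-PD-1 4 Gy replicates 2 and 3, 0 genes were called at 4 Gy against 0 Gy with anti-PD-1, H2-DMa (0.08) and H2-DMb1 (0.11) reversed at 8 Gy against 4 Gy, H2-Eb1 (-0.12) and H2-DMb1 (-0.02) reversed for anti-PD-1 against IgG, and the log2 ratio of H2-Oa to H2-DMa was -0.88 at 8 Gy and -0.84 at 4 Gy against 0 Gy, neither passing, and -0.05 at 8 Gy against 4 Gy. For the ratio at 8 Gy against 0 Gy only the adjustment changed.

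Same-numbered libraries did not deviate together (median r -0.1 over 36 pairs, 11 above 0.1). Groups of 2 or 3 libraries are too small for this to exclude a pairing by number. With a replicate block 1 gene was called at 4 Gy against 0 Gy with anti-PD-1, where H2-DMa missed the threshold (adjusted p = 0.0568), and no other call among the 9 genes changed. Over all genes the block left 0 calls between the antibodies at 4 Gy (2714 without the block), 1 for the anti-PD-1 effect at 4 Gy minus that at 0 Gy (1593), 1 at 8 Gy minus 0 Gy (0), 9 between the antibodies over all doses (41), 30 at 0 Gy (48) and 306 at 8 Gy against 0 Gy with anti-PD-1 (497). With the block Itgax for anti-PD-1 against IgG (adjusted p = 0.065), Ifng at 8 Gy (0.085), Irf1 (0.0533), Tap2 (0.0562) and Psmb10 (0.0548) at 4 Gy, and Cd79b (0.0692) and Cd22 (0.0695) at 4 Gy with anti-PD-1 missed the threshold.

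Counts over all genes moved by more than 1.5 times elsewhere too. Fitting only the compared groups gave 131 calls at 4 Gy against 0 Gy (3076 in the fit of all groups), 131 at 8 Gy against 0 Gy with anti-PD-1 (497), 432 with IgG (1854), 3361 at 8 Gy against 4 Gy with IgG (1330), 0 between the antibodies at 0 Gy (48), 1497 at 4 Gy (2714) and 26 at 8 Gy (1), and 0 and 1535 for the effect at 4 Gy minus 0 Gy (1593) and at 8 Gy minus 4 Gy (0). Quantile normalization gave 1028 at 8 Gy against 0 Gy with IgG and 2591 for the effect at 4 Gy minus 0 Gy, and no filter gave 412 for that effect, 1503 between the antibodies at 4 Gy and 97 at 0 Gy. Without anti-PD-1 4 Gy replicates 2 and 3 anti-PD-1 against IgG had 0 calls. Leaving out 1 library gave 2011 to 4413 calls at 8 Gy and 97 to 5747 at 4 Gy against 0 Gy, 3570 to 7431 at 8 Gy against 4 Gy, 0 to 1316 for anti-PD-1 against IgG, and 1536 to 8038 at 4 Gy against 0 Gy with anti-PD-1.

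Leaving out 1 library at a time gave 0 to 3 calls at 8 Gy and 0 to 3 at 4 Gy against 0 Gy, 0 to 1 and 0 to 4 for these doses with anti-PD-1, and 0 to 2 for the anti-PD-1 effect at 4 Gy minus that at 0 Gy. Of 608 values of single genes 47 changed sign, none of them called. H2-Eb1 at 8 Gy against 0 Gy ran from -0.05 to 0.30. At 8 Gy against 4 Gy the ranges were -0.04 to 0.14 for H2-Aa, -0.05 to 0.10 for Cd74, -0.14 to 0.02 for H2-DMa, -0.09 to 0.05 for H2-DMb1, -0.17 to 0.13 for H2-Oa and -0.11 to 0.26 for H2-Ob. For anti-PD-1 against IgG they were -0.20 to 0.03 for H2-Ab1, -0.11 to 0.13 for H2-Eb1, -0.11 to 0.09 for H2-DMa, -0.03 to 0.18 for H2-DMb1 and -0.19 to 0.15 for H2-Ob. The ratio of H2-Oa to H2-DMa ran from -1.02 to -0.75 at 8 Gy and from -1.02 to -0.76 at 4 Gy against 0 Gy, and from -0.14 to 0.14 at 8 Gy against 4 Gy. That of H2-Ob to H2-DMb1 ran from -0.15 to 0.23 at 8 Gy against 4 Gy. All 9 genes lay above the floor of 3 reads in every library.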
